A study of Mus musculus with 6 samples.

Results

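The let-7 family guide strands are the 5p arms of the let-7 microRNAs (miRNAs) and of miR-98, which shares their seed. The members were taken by name from the deposited abundance table: let-7a-5p, let-7b-5p, let-7c-5p, let-7d-5p, let-7f-5p, let-7g-5p, let-7i-5p, miR-98-5p and the merged entry let-7e-5p/7k, in which 2 names were counted together. That is 9 of 1926 listed miRNAs. They were measured in small RNA libraries of extracellular vesicles, membrane-bound particles that cells release, isolated from mouse brain. Status epilepticus (SE), a seizure that does not end by itself, had occurred in the mice behind 3 libraries, and the other 3 came from their matched controls (CON), at 24 hr by the series title. The labels give no strain, genotype, age, sex or seizure agent for either group, and they do not say whether replicates came from separate animals. The p-values therefore measure the spread between these libraries, which may be technical.

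A guide strand is the arm of a miRNA hairpin that Argonaute keeps, and the other arm, the passenger strand, is mostly discarded. The guide finds messenger RNAs by base pairing through its seed, bases 2 to 8, and lowers their translation and stability. let-7 was found as a developmental timing gene in worms. In mammals the protein LIN28 blocks maturation of let-7 precursors in stem and progenitor cells, and mature let-7 accumulates as cells differentiate, neurons among them. Known let-7 targets include regulators of proliferation such as Ras and Hmga2.

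The 9 mature sequences are shown because they show what the members share and how few bases separate them. Capitals mark the seed, bases 2 to 8 from the 5′ end. The sequences are from RefSeq (build GRCm38.p6), which holds all 9 members; the merged entry is shown by its let-7e sequence.
let-7a-5p: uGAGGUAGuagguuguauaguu
let-7b-5p: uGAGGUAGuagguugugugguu
let-7c-5p: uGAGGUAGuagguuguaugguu
let-7d-5p: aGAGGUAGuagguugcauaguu
let-7e-5p: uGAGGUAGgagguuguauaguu
let-7f-5p: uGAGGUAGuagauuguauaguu
let-7g-5p: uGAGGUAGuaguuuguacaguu
let-7i-5p: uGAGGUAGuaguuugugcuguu
miR-98-5p: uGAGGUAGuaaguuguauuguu
Every member is 22 bases long and has the same seed, so levels were set side by side without a length correction. How evenly library preparation captured each sequence was not tested. Counted from 1 at the 5′ end of let-7a-5p, let-7c-5p differs by A19G, let-7e-5p by U9G and let-7f-5p by G12A. let-7b-5p carries A17G and A19G, let-7d-5p carries U1A and U16C, let-7g-5p carries G12U and U18C, and miR-98-5p carries G11A and A19U. let-7i-5p is farthest from let-7a-5p, with G12U, A17G, U18C and A19U. Of the 36 pairs of members, 4 differ at 1 base and 10 at 2 bases. No source used here says how reads with a mismatch were assigned, so the split between such close members is uncertain. let-7k, counted together with let-7e-5p, has the let-7 seed and differs from let-7e-5p by A17G and A19G over its length of 19 bases.
let-7k: uGAGGUAGgagguugugug

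In the GENCODE annotation of GRCm38, 12 hairpin genes make these guides, let-7k left aside. Mirlet7d, Mirlet7f-1 and Mirlet7a-1 lie within 2261 bases at chr13:48536012-48538272 on the minus strand, in exons of the long noncoding gene 6720427I07Rik. Mirlet7c-2 and Mirlet7b lie within 801 bases at chr15:85706603-85707403 on the plus strand, in exons of Lncppara. Mirlet7f-2 and Mir98 lie within 976 bases at chrX:151912346-151913321 on the plus strand, in an intron of Huwe1. Mirlet7e is intronic in Spaca6 on chromosome 17, Mirlet7g is intronic in Wdr82 on chromosome 9, and Mirlet7c-1 is intronic in Mir99ahg on chromosome 16. Mirlet7a-2, on chromosome 9, is in an intron of 3110039I08Rik, and Mirlet7i, on chromosome 10, overlaps an exon of the pseudogene D630033A02Rik. let-7a-5p, let-7c-5p and let-7f-5p each have 2 genes, and their reads cannot be divided between them. The deposited tables carry no coordinates, and these are from the annotation.

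The libraries held 5482407 to 10845434 miRNA reads, and 775 miRNAs were detected. The deposited names go with the SE columns only, so the CON rows were put back under their miRNA names by solving for the base means that the authors' deposited table lists. Each of the 9 members had 1 candidate CON row. The row stayed in place for 6 members and moved for 3: let-7b-5p and let-7f-5p exchanged rows, and miR-98-5p received the row listed under another name. With the rows put back, the log2 ratio, CON over SE, of mean reads divided by the authors' size factors matched the fold change in the authors' deposited table to within 1.54e-05 for every member. RPM are on another scale and need not match it. All CON values below are under the names as put back.

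The family made up most of the miRNA reads in every library. Listed here and below in replicate order, 1 to 3, its share of reads was 78.7%, 80.1% and 81.4% in the SE libraries and 77.5%, 79.3% and 78.0% in the CON libraries. The SE libraries had a mean of 80.1% ± 1.35 (SD, n = 3), and the CON libraries had 78.3% ± 0.946 (SD, n = 3). The groups overlapped, since CON replicate 2 lay above SE replicate 1. Being a sum over chosen members, the share was not tested. Without miR-98-5p, the other 8 members still held 77.1% to 81.0% of the reads. Seen from the other side, the reads left for all other miRNAs were 18.6% to 22.5% of a library. The most abundant miRNA outside the family was miR-7a-5p, at 17183 to 24660 RPM. RPM are reads scaled to a total of 1000000 miRNA reads in each library. It was followed by miR-191-5p, miR-26a-5p, miR-151-5p and miR-382-5p. The mean of let-7c-5p was 14.6 times that of miR-7a-5p.

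let-7c-5p led the family in 6 of 6 libraries. It stood at 287977, 314716 and 291189 RPM in SE and at 284654, 294636 and 270569 RPM in CON libraries. SE replicate 2 was the highest and CON replicate 3 the lowest, and the groups overlapped. Of the family's reads, let-7c-5p held 34.7% to 39.3%. The next members formed a group of near-equal level. let-7b-5p stood at 109814, 115373 and 125088 RPM in SE and 107698, 117513 and 109227 RPM in CON libraries. let-7f-5p stood at 106770, 109646 and 108525 RPM in SE and 117816, 103686 and 120587 RPM in CON libraries. let-7a-5p stood at 101929, 91399 and 111092 RPM in SE and 93170, 102517 and 99224 RPM in CON libraries. let-7f-5p could not be placed among these 3 beyond its spread, while let-7b-5p and let-7a-5p kept their order. let-7b-5p lay above let-7a-5p in 6 of 6 libraries, with a mean log2 ratio of 0.19 ± 0.079 (SD, n = 6). It lay above let-7f-5p in 4 of 6 libraries, with a mean log2 ratio of 0.04 ± 0.15 (SD, n = 6). let-7f-5p lay above let-7a-5p in 5 of 6, with 0.16 ± 0.16 (SD, n = 6). Together with let-7c-5p, these 4 members took 76.9% to 78.8% of the family's reads.

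The other members followed in an order that was mostly fixed. let-7g-5p stood at 66543, 64821 and 61755 RPM in SE and 67388, 62815 and 70772 RPM in CON libraries, rank 5 of all miRNAs in each library. let-7i-5p came next in each library, at 49596, 48634 and 46585 RPM in SE and 48987, 45699 and 50556 RPM in CON libraries. The ranges of let-7a-5p, let-7g-5p and let-7i-5p did not overlap each other. let-7e-5p/7k stood at 27682, 29840 and 34726 RPM in SE and 30431, 32576 and 28666 RPM in CON libraries. let-7d-5p stood at 31752, 23087 and 30898 RPM in SE and 21338, 30045 and 26070 RPM in CON libraries. The merged entry was above let-7d-5p in 5 of 6 libraries, SE replicate 1 being the exception, and their mean log2 ratio of 0.18 ± 0.24 (SD, n = 6) was within its spread. In SE replicate 2, let-7d-5p ranked 9 and miR-7a-5p lay above it, the only library in which the 8 highest miRNAs were not all let-7. miR-98-5p was far lower, at 4732, 3709 and 3960 RPM in SE and 3413, 3689 and 4175 RPM in CON libraries, which is rank 22 to 25. Its mean was 6.89 times below that of let-7d-5p and 0.499% ± 0.0598 (SD, n = 6) of the family.

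**Figure D1:**
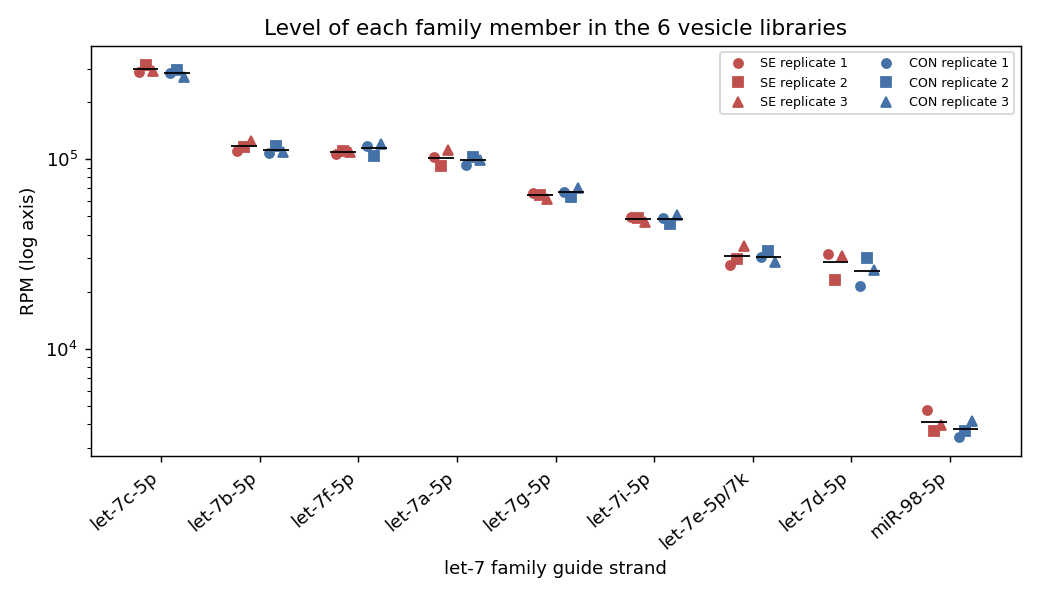
RPM of each family member (log axis) in the 3 SE libraries (red) and 3 CON libraries (blue), with marker shape giving the replicate and black lines the group means. let-7c-5p is on top in all 6 libraries, let-7b-5p, let-7f-5p and let-7a-5p come next with let-7b-5p above let-7a-5p in each library, miR-98-5p is lowest, and the red and blue points overlap for every member.

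Status epilepticus was compared with control to ask whether vesicle let-7 differed between the groups. None of the 9 members passed the test, and the SE and CON values overlapped for all 9. The test was limma-trend on log2(RPM + 1) with Benjamini-Hochberg adjustment over the 290 miRNAs that averaged 10 RPM or more, called at an adjusted p under 0.05. It called 1.03% of all miRNAs tested and 0 of 9 members, with 0 members at an unadjusted p under 0.05, against 9.31% of all miRNAs tested. Separation of the groups without overlap occurred in 14.8% of all miRNAs tested. For let-7d-5p the mean level was 28579 ± 4775 RPM (SD, n = 3) in SE libraries, and that of the CON libraries was 25818 ± 4359 RPM (SD, n = 3). It had the largest log2 fold change, SE over CON, at 0.15 (standard error 0.14, limma adjusted p = 0.838). miR-98-5p had 0.13 (standard error 0.15, limma adjusted p = 0.871). For let-7c-5p the mean level was 297960.4 ± 14599 RPM (SD, n = 3) in SE libraries, against 283286 ± 12092 RPM (SD, n = 3) in CON libraries. On the log2 scale let-7c-5p had 0.073 (standard error 0.067), let-7b-5p 0.066 (0.081), let-7a-5p 0.042 (0.088) and let-7e-5p/7k 0.0045 (0.11). let-7f-5p had -0.071 (standard error 0.082), let-7g-5p -0.057 (0.088) and let-7i-5p -0.0035 (0.092). Limma adjusted p ran from 0.837 to 0.984 over the members. Their median log2 fold change was 0.042, and that of all miRNAs tested was -0.072. In such bulk libraries, a different number of let-7 copies per vesicle and a different mix of vesicles cannot be told apart. By limma-voom on recovered reads the count was also 0, with a lowest unadjusted p of 0.275. With quantile normalization 2 of 9 members had an unadjusted p under 0.05 by limma, in opposite directions. let-7f-5p was at -0.12 (limma unadjusted p = 0.0238, adjusted p = 0.492) and let-7b-5p at 0.082 (limma unadjusted p = 0.0326, adjusted p = 0.522). Quantile normalization sets values by rank, and these neighbours exchanged ranks, so the 2 values are not separate results. let-7b-5p ranked 2, 2 and 2 in SE and 3, 2 and 3 in CON libraries. let-7f-5p ranked 3, 3 and 4 in SE and 2, 3 and 2 in CON libraries.

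The direction of these small values depended on what the reads were scaled to. On the RPM scale 6 members had a positive and 3 a negative value. With median-of-ratios scaling, which takes the typical miRNA as the reference, all 9 were positive, from 0.033 for let-7f-5p to 0.25 for let-7d-5p, and 0 passed by limma, with a lowest adjusted p of 0.693. That scaling moved the median of all miRNAs tested from -0.072 to 0.03. With each library scaled to its reads outside the family, all 9 were again positive, from 0.055 for let-7f-5p to 0.27 for let-7d-5p. This scaling also moved the median of all miRNAs tested, to 0.049. There the lowest unadjusted p was 0.0421, for let-7c-5p at 0.20 (standard error 0.088), which had an adjusted p of 0.531 by limma. Since RPM add up to a fixed total and the family holds most of it, the family's own RPM can move little. The number of family reads per read outside the family varied more, at 3.69, 4.03 and 4.37 in the SE libraries and 3.44, 3.84 and 3.54 in the CON libraries. SE replicates 2 and 3 were above all CON libraries and SE replicate 1 was below CON replicate 2.

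**Figure D2:**
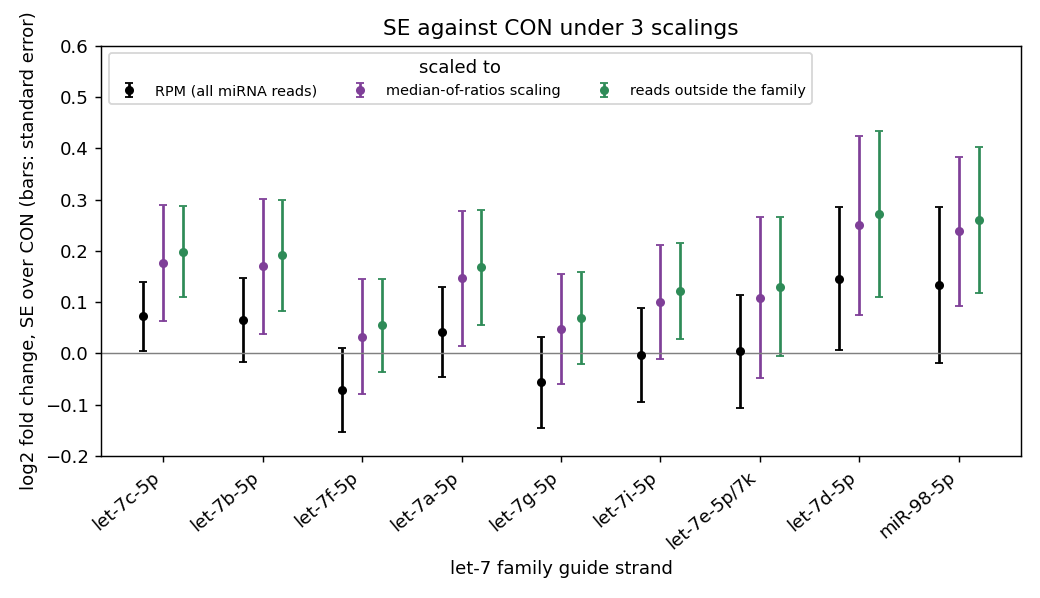
Log2 fold change, SE over CON, of each member with its standard error (bars), from limma on RPM (black), after median-of-ratios scaling (purple) and after scaling to the reads outside the family (green). On RPM the values lie between -0.071 and 0.15 on either side of 0, and both other scalings lift all 9 above 0, where 0 of 9 passed.

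Signs in the authors' deposited table are positive where CON is higher, as they matched the put-back reads for 316 of 316 miRNAs with a base mean of at least 50 that were detected in both groups. All 9 members were negative in the authors' deposited table, with a median log2 fold change of -0.16. The median of all miRNAs there was also negative, at -0.067, and it was -0.040 for those with a base mean of at least 50. The largest in size was that of let-7d-5p, at -0.24 (standard error 0.21), and miR-98-5p followed in the authors' deposited table at -0.23 (standard error 0.12). miR-98-5p also had the lowest unadjusted p of a member in the authors' deposited table, 0.0577, and let-7c-5p had 0.154. None of the 9 was called in the authors' deposited table, in which 1.04% of miRNAs with a p-value were called and each member had an adjusted p of 0.975. The authors' deposited table uses the same reads and is not independent evidence. The labels SE and CON themselves could not be checked by any value here, and an exchange of these names would turn each direction.

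The members differed in how steady they were. let-7i-5p varied least over the 6 libraries, with a coefficient of variation of 3.82%, followed by let-7c-5p at 4.97% and, close behind it, let-7g-5p. let-7d-5p varied most, at 16.0%, and its highest library was 1.49 times its lowest. miR-98-5p had 11.8% and let-7e-5p/7k 8.48%. The counting error that these read numbers alone would give was at most 0.724% in any library for miR-98-5p and 0.289% for let-7d-5p, if each read were an independent molecule. Within groups, the median SD of the members was 0.084 on the log2 scale, against 0.25 for all miRNAs tested and 0.18 for the 38 other miRNAs averaging 1000 RPM or more. let-7d-5p, at 0.25, was at the median of all miRNAs tested. These are spreads on the RPM scale, where the fixed total holds down the spread of a family that makes up most of it. The members and the other miRNAs are therefore not compared on equal terms, and how much this lowers the members' SD was not tested.

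let-7f-5p, let-7g-5p and let-7i-5p varied together across the libraries. The log2 ratio of let-7g-5p to let-7i-5p had an SD of 0.031 over the 6 libraries, the lowest of 36 pairs, and the next were let-7f-5p with let-7g-5p at 0.050 and let-7f-5p with let-7i-5p at 0.059. Close behind came let-7b-5p with let-7e-5p/7k at 0.067, with let-7a-5p at 0.079 and with let-7c-5p at 0.082. let-7f-5p, let-7g-5p and let-7i-5p were all highest in CON replicate 3, by 0.12, 0.11 and 0.065 above their own log2 means. Relative to those means they were at -0.098, -0.063 and -0.080 in CON replicate 2 and at -0.033, -0.087 and -0.053 in SE replicate 3. Of the family's reads, these 3 members together took 28.3%, 27.8% and 26.6% in SE and 30.2%, 26.8% and 31.0% in CON libraries. In the sequences above, these 3 differ from let-7a-5p at position 12, let-7f-5p by G12A and both others by G12U, and none of the other members does. This grouping was made after the values were seen, with 3 libraries a group, and was not tested. The genes of these 3 members do not share a cluster.

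let-7d-5p was in the pairs that varied most. The 3 pairs with the largest SD of the log2 ratio were let-7d-5p with let-7f-5p at 0.30, with let-7g-5p at 0.28 and with let-7i-5p at 0.27. With let-7a-5p, at 0.16, and miR-98-5p, at 0.17, it was close to the median of all pairs, 0.15. let-7d-5p and let-7f-5p are made from neighbouring hairpins on chromosome 13, and let-7f-5p also from a gene on chromosome X. Their ratio was 0.297, 0.211 and 0.285 in SE and 0.181, 0.290 and 0.216 in CON libraries. let-7d-5p was high in SE replicates 1 and 3 and CON replicate 2, and low in CON replicate 1 and SE replicate 2, so the swings crossed the groups. let-7a-5p was likewise lowest in SE replicate 2 and CON replicate 1, and highest in SE replicate 3. Pairs with 1 mismatch had a median SD of 0.12, and those with 2, 3 and 4 mismatches had 0.15, 0.19 and 0.15. The single pairs with 5 and 6 mismatches had 0.17 and 0.27. Across the 36 pairs, which share members and libraries, the Spearman correlation of mismatches with the SD was 0.349, and it was 0.113 over the 21 pairs without let-7d-5p and miR-98-5p.

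**Figure D3:**
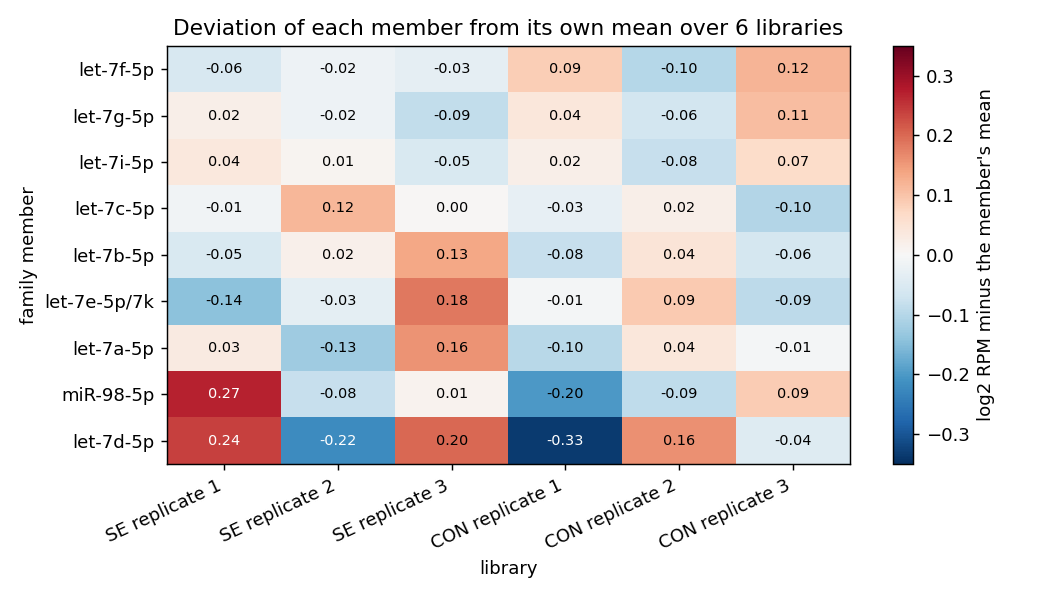
Log2 RPM of each member in each library minus that member's mean over the 6 libraries (red above, blue below, numbers printed). let-7f-5p, let-7g-5p and let-7i-5p share a pattern, with CON replicate 3 highest, and let-7d-5p has the widest range, from -0.33 in CON replicate 1 to 0.24 in SE replicate 1.

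Some miRNAs outside the family had a closely similar pattern. Likeness was measured as the root mean square difference between centred log2(RPM + 1) values over the 6 libraries, among 279 miRNAs, where the median was 0.25 from the family sum. The nearest to the family sum were miR-669c-5p at 0.064, miR-22-5p at 0.085 and miR-337-5p at 0.092. A family sum that hardly moves on the RPM scale is matched by any miRNA that is steady, and these values describe only that. let-7d-5p was chosen after the values were seen, as the most variable member. Nearest to it were miR-17-3p at 0.061, miR-138-5p at 0.067 and miR-92b-3p at 0.096, where the median over candidates was 0.34. miR-138-5p, the most abundant of these, stood at 6797, 4479 and 5832 RPM in SE and 4346, 5710 and 5395 RPM in CON libraries. Each of these miRNAs was lowest in the same 2 libraries as let-7d-5p. They were chosen by likeness to it, so this is not a separate result.

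The passenger strands were scarce beside the guides. Of 11 listed passenger entries 10 were detected, and together they came to 91.9, 99.9 and 84.8 RPM in SE and 158, 94.7 and 73.6 RPM in CON libraries. CON replicate 1 was the highest and CON replicate 3 the lowest. let-7d-3p alone stood at 60.3, 66.2 and 54.7 RPM in SE and 99.8, 71.5 and 40.9 RPM in CON libraries. It was the most abundant passenger although let-7d-5p is one of the lowest guides. With reads pooled over the 6 libraries there were 434 reads of let-7d-5p for each read of let-7d-3p. The corresponding number was 4130 for let-7e-5p/7k, 9266 for let-7b-5p, 17353 for let-7i-5p and 28793 for let-7g-5p. For let-7a-5p and let-7c-5p, whose passenger entries are partly merged, it was 44487. At the far end, let-7f-5p had 4555615 reads against 20 reads of its 2 passenger entries, 227781 for each. let-7f-1-3p was above 0 in SE replicate 1 and CON replicate 1 only, and let-7f-2-3p was listed at 0 throughout. miR-98-5p had 10413 reads for each of 16 reads of miR-98-3p. Abundant enough for testing were 2 passengers, and 0 passed by limma: let-7d-3p had a log2 fold change of -0.14 (adjusted p = 0.910) and let-7b-3p -0.12 (adjusted p = 0.935), and 0 had an unadjusted p under 0.05.

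The hairpins at both ends of this scale are neighbours on chromosome 13, 1714 bases apart, and are shown with both mature arms in capitals, guide first (RefSeq, GRCm38.p6, minus strand, chr13:48536012-48536114 and chr13:48537829-48537917).
Mirlet7d: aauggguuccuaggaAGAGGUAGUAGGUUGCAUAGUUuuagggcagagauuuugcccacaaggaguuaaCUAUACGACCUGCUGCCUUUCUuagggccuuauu
Mirlet7f-1: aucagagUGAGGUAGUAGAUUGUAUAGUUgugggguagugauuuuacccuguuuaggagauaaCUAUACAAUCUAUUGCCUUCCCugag
The let-7d guide differs from let-7a-5p at its first base (U1A), and its passenger was seen at 65.6 RPM on average. The let-7f-1 passenger was seen at 0.495 RPM on average. let-7f-5p is also made from Mirlet7f-2, so its ratio does not belong to a single hairpin.

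**Figure D4:**
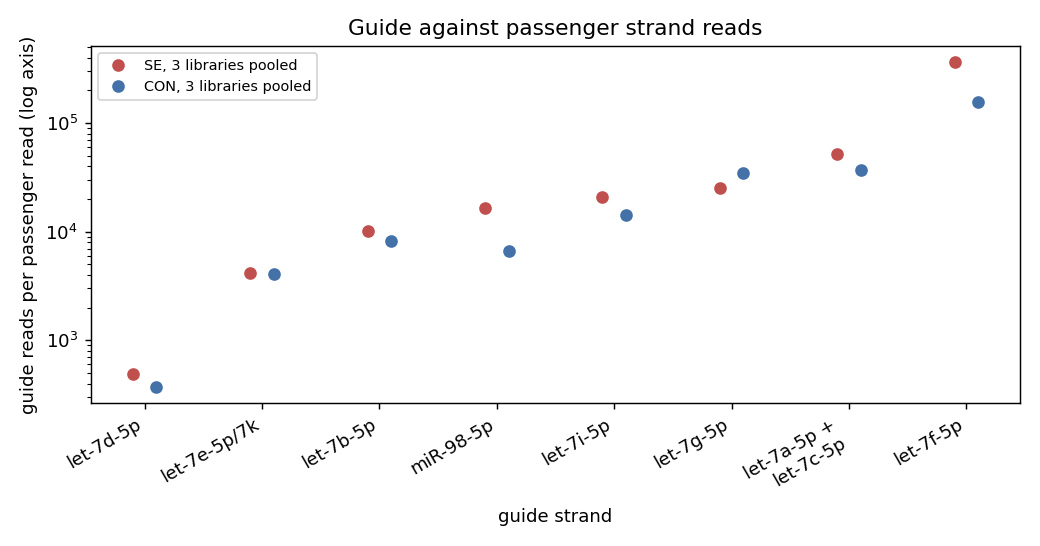
Guide reads for each passenger read (log axis), pooled over the 3 SE libraries (red) and the 3 CON libraries (blue), for the members whose passengers could be assigned. The points run from 373 for let-7d-5p in CON libraries to 363388 for let-7f-5p in SE libraries. Pooled over both groups, the ratio runs from 434 for let-7d-5p to 227781 for let-7f-5p. The SE and CON points together rest on 16 passenger reads for miR-98-5p and 20 for let-7f-5p.

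Several let-7 genes share a primary transcript or a neighbourhood with miR-99, miR-100 and miR-125 genes, whose mature products were far below the let-7 guides. Mir99b, Mirlet7e and Mir125a lie within 692 bases at chr17:17830188-17830879. let-7e-5p/7k was 33.9 to 53.1 times miR-99b-5p and 15.8 to 24.7 times miR-125a-5p. miR-99b-5p stood at 678, 562 and 699 RPM in SE and 760, 845 and 846 RPM in CON libraries, without overlap. Mir99a and Mirlet7c-1 lie within 815 bases at chr16:77598936-77599750. let-7c-5p was 1019 to 2169 times miR-99a-5p and 63.6 to 96.3 times miR-125b-5p, though let-7c-5p and miR-125b-5p each have a second gene. miR-99a-5p stood at 159, 145 and 186 RPM in SE and 229, 191 and 266 RPM in CON libraries, without overlap. Mir100 and Mirlet7a-2 lie on chromosome 9, and let-7a-5p was 495 to 724 times miR-100-5p. let-7a-5p is also made from Mirlet7a-1 on chromosome 13, so this ratio does not belong to a single cluster. Of 11 listed partner arms 9 were tested and 0 passed by limma, 1 of them, miR-99a-5p at -0.48 (standard error 0.21, adjusted p = 0.486), having an unadjusted p under 0.05. Log2 fold changes were negative for 7 and positive for 2, with a median of -0.18. The groups did not overlap for 3 of 9, miR-99b-3p being the other, where 14.8% of all miRNAs tested did not.

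Close to the family stand 2 further entries. let-7j lacks the let-7 seed because of 1 base, differing from let-7i-5p by G8U, and is 2 bases longer, at 24 bases.
let-7j: uGAGGUAUuaguuugugcuguuau
It stood at 111, 108 and 113 RPM in SE and 124, 124 and 121 RPM in CON libraries, without overlap, and had a log2 fold change of -0.15 (standard error 0.20, limma adjusted p = 0.871). That is 0.224%, 0.222% and 0.242% of let-7i-5p in SE and 0.254%, 0.271% and 0.240% in CON libraries. Whether let-7j reads are let-7i-5p reads with a changed base was not tested. miR-1961, which has the let-7 seed, was listed at 0 in the SE columns and had no CON reads, where a count of 0 allows up to 0.277 to 0.547 RPM. The lowest value above 0 in each library stood for 2 reads, so a 0 may also hide a single read.

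The libraries held markers of brain. All 5 neuronal markers were detected, summing to 19967 to 24581 RPM in SE and 22083 to 26503 RPM in CON libraries. The astrocyte markers summed to 7908 to 8788 RPM in SE and 9141 to 13019 RPM in CON libraries. The liver markers, led by miR-122-5p, summed to 92.8 to 117 RPM in SE and 154 to 239 RPM in CON libraries. Red cell markers summed to 16.8 to 32.2 RPM in SE and 19.1 to 29.5 RPM in CON libraries, with miR-451a at 0 in SE libraries and miR-144-3p at 0 in all 6. Choroid plexus markers summed to 257 to 561 RPM in SE and 293 to 449.8 RPM in CON libraries. Myeloid markers summed to 41.9 to 56.8 RPM and 45.4 to 71.9 RPM, and oligodendrocyte markers to 253 to 332 RPM and 310 to 452 RPM, in SE and CON libraries. Of 13 markers tested 0 passed by limma, with miR-122-5p just over the threshold (limma adjusted p = 0.0504). An unadjusted p under 0.05 was found for 3 of 13, and for 9.31% of all miRNAs tested. The median log2 fold change of all miRNAs tested was -0.072. These 3 markers had negative values: the liver marker miR-122-5p at -0.91, the astrocyte marker miR-29a-3p at -0.51 and the oligodendrocyte marker miR-338-3p at -0.49. The other oligodendrocyte markers did not share that sign: miR-219a-2-3p was at 0.063 (standard error 0.25), and miR-219a-5p, too low to test, had 3 reads in SE replicate 1, 4 in SE replicate 3 and 0 elsewhere. The other astrocyte marker, miR-143-3p, was at -0.19 (standard error 0.18), and its groups overlapped. The liver marker miR-192-5p, too low to test, overlapped at 2.83 to 5.53 RPM in SE and 3.84 to 6.08 RPM in CON libraries. Neuronal markers were split, with miR-124-3p at 0.16 and miR-138-5p at 0.14, and miR-128-3p at -0.33, miR-9-5p at -0.24 and miR-137-3p at -0.15. The part of any marker in the let-7 values was not tested.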

How the data were processed

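QIAseq miRNA libraries were prepared from column-purified, DNase-treated RNA, per the labels' protocols. The aligner, counter, annotation and use of molecular identifiers are not given in the sources used here. The submitters' processing notes name mm9 and DESeq2. The authors' deposited RPM are reads scaled to a fixed total over 1926 miRNAs. Values were whole multiples, within 0.01 reads, of a step in which the lowest value is 2 reads, which gave depth and reads. The authors' deposited table gives a base mean signal of normalized counts, log2 fold changes with standard errors, a Wald score and p-values.

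SE size factors were fitted to 25 miRNAs absent from the second group, and CON rows were matched to 6 times the base mean minus the SE part. All 687 totals matched within a relative tolerance of 1e-05, 597 with 1 candidate row and 90 with rows of identical reads. With the CON size factors exchanged, at most 3 of 312 totals of at least 150 matched.

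Groups were compared by limma-trend on log2(RPM + 1), with R 4.3.3 and limma 3.58.1. Named miRNAs were the 9 members, their passenger strands, other let-7 seed entries, cluster partners, the 5 most abundant others, 3 nearest patterns and extreme pairs. Members, lists and alternatives were chosen with earlier results of these data known. Alternatives were pseudocounts, filters, scalings, limma settings, limma-voom, a replicate block, an adjusted p under 0.1, names as deposited and each library left out. Planned edgeR and DESeq2 runs were not made. Tested on simulated counts of 290 miRNAs for SE against CON, limma called 92.7% of 2-fold changes and 1.13% of unchanged miRNAs. The simulation gave every miRNA the same spread setting (dispersion) and did not rescale libraries to a fixed total after the changes. Its rates therefore cannot be carried over to members that hold much of a library's reads. Scripts ran in Python 3.11.15 (matplotlib 3.10.9, scipy 1.17.1, pandas 2.3.3, numpy 2.4.6). Intervals and floors cover counting error only.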

Additional observations from a re-analysis of the deposited data

How the results depend on the processing

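The planned edgeR and DESeq2 runs were not made. None of the 9 members passed under any of 19 alternatives by limma, with a lowest adjusted p of 0.316, without CON replicate 2. The count over all miRNAs tested was 3 and 0 with CON rows as deposited. Leaving out a library gave 3 to 6 calls over all miRNAs, with 6 without CON replicate 2 and 5 without CON replicate 3, and 0 members. The members' median log2 fold change was 0.15 with median-of-ratios scaling, 0.17 scaled to reads outside the family, and 0.0057 to 0.073 with a library left out. Signs turned with median-of-ratios scaling for let-7f-5p (0.033), let-7g-5p (0.048) and let-7i-5p (0.10), and scaled to reads outside the family for the same members (0.055, 0.069 and 0.12). With quantile normalization let-7d-5p had -0.070 and let-7e-5p/7k -0.078, and let-7c-5p, let-7g-5p and let-7i-5p had 0 because their ranks were the same in every library. let-7e-5p/7k was -0.0022 by limma-voom. miR-98-5p was -0.22 with CON rows as deposited. With a library left out, let-7a-5p ran from -0.025 to 0.12, let-7e-5p/7k from -0.086 to 0.077 and let-7i-5p from -0.044 to 0.028, while the other members kept their sign. let-7d-5p ran from 0.016 without CON replicate 1 to 0.29 without SE replicate 2, and miR-98-5p from 0.033 to 0.21. The family's share was 1.80 percentage points higher in SE libraries, and 1.14 to 2.49 with a library left out. The share of let-7c-5p in the family, 36.7% over 6 libraries, ran from 36.2% to 37.1%. With the replicate number as a block, 3 miRNAs and 0 members were called and no sign changed. Deviations of same-numbered libraries had correlations of -0.42, -0.25 and 0.04, and those of differently numbered libraries ran from -0.20 to 0.42. With 3 libraries a group, these cannot show whether the libraries were collected or prepared in pairs.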
